A study of Drosophila melanogaster with 2 samples.

Results

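The genes described here encode the translation initiation factors of Drosophila melanogaster: every protein-coding gene of the dm6 annotation whose symbol begins with eIF and a digit. There were 44 such genes among 13945 protein-coding genes on the 6 chromosome arms, and the symbols were the only criterion. Binding of the transcription factor Glass at these genes was read from ChIP-seq peak lists. The samples were whole pupae of 24 hours, of mixed sex, from a transgenic line that stably expresses Glass (gl) with GFP fused to its C terminus. They formed 1 group of 2 biological replicates, with no other genotype, stage or treatment. The free-text label of both samples calls them an input control, whereas their antibody field, assay name and peak files describe ChIP of gl, and they are read as ChIP here. Because whole animals were used, a peak does not say in which cells the protein was bound, and the labels do not name the promoter that drives the transgene.

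Translation initiation brings the initiator tRNA, the small ribosomal subunit and the start codon of an mRNA together. The complex eIF2 carries the initiator tRNA and is recharged with GTP by eIF2B, eIF3 is a large scaffold on the small subunit, and eIF1 and eIF1A govern scanning and start codon choice. The cap of the mRNA is bound by eIF4E, which is joined by the scaffold eIF4G and the helicase eIF4A, while eIF5B joins the large subunit and eIF6 holds it back. Most of these genes are needed in every cell. Glass is a zinc finger protein known for its role in photoreceptor development.

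Of the 44 genes, 12 (27.3%) had at least 1 summit of the authors' list of reproducible peaks, called the optimal list here, inside their span extended by 1 kb to both sides. Such a gene is called bound below. The share over all protein-coding genes was 23.1% (3224 of 13945), so the initiation factor genes lay close to the background. The strongest were at eIF2Bbeta, eIF6 and eIF4EHP. At 6 of the 12 bound genes the strongest summit lay nearer to the transcription start site (TSS) of a neighbour than to their own. Over all bound genes this held for 36.4%. The DNA at the strongest summit of 6 bound genes is shown first, because these positions carry the results that follow. They belong to the bound genes with the strongest summits, without eIF6. Each is the plus strand of dm6 from RefSeq, up to 100 bases to each side of the summit and without annotated UTR, and the 21 bases around the summit are in capitals.
eIF2Bbeta, chrX:2703853-2703991: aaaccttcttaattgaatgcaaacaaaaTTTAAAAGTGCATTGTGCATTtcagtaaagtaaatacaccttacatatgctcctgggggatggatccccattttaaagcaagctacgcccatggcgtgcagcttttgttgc
eIF4EHP, chr3R:24109093-24109293: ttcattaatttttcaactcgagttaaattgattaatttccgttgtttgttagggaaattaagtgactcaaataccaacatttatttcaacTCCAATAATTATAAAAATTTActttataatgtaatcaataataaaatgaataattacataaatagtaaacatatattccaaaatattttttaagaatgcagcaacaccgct
eIF2beta, chr3L:12524130-12524330: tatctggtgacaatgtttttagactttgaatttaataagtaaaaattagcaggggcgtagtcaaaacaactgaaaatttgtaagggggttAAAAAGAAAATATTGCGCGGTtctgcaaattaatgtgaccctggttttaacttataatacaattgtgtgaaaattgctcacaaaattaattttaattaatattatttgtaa
eIF3h, chr2L:5052454-5052654: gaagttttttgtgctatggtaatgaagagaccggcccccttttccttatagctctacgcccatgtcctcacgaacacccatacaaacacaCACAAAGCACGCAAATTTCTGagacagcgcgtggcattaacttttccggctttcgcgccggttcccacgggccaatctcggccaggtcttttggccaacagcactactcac
eIF4H1, chrX:16448756-16448956: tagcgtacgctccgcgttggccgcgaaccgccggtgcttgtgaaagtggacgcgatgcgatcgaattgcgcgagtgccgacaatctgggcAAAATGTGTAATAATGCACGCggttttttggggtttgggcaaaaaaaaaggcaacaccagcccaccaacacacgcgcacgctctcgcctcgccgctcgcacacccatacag
eIF5B, chr3L:3442137-3442337: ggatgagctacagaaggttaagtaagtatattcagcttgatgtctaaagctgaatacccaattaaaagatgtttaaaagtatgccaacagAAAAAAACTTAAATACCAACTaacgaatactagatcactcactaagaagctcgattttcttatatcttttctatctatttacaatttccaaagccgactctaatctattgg

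The stretches differed in composition. G and C made up 22.4% of the stretch at eIF4EHP and 57.7% of that at eIF4H1. None of the 8 motifs described below for all summits had a match in these 6 stretches.

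The strongest summit at any initiation factor gene was that of eIF2Bbeta (FBgn0024996, X 2704571 to 2706217, plus strand), a regulatory subunit of the exchange factor eIF2B. Its signal value, the authors' own height of a peak, was 2411, and it ranked 5 of 4809 in the optimal list. The same position had a signal value of 1298 in replicate 1 and 1121 in replicate 2, ranks 5 and 7 of 30000. The summit lay 680 bp upstream of the TSS of eIF2Bbeta and 39 bp upstream of that of Ugalt, a UDP-galactose transporter gene on the opposite strand. Without the extension eIF2Bbeta had no optimal summit. The other eIF2B genes were low. The strongest pooled entries of eIF2Bepsilon, eIF2Bgamma and eIF2Bdelta had signal values of 98.45, 55.47 and 54.97, and eIF2Balpha had no entry in any list.

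Of the 3 genes of eIF2, the carrier of the initiator tRNA, eIF2beta was bound. The strongest summit counted for eIF2beta (FBgn0004926, 3L 12525093 to 12526731, minus strand) had a signal value of 393.3 and ranked 779. It ranked 652 in replicate 1 (256.3) and 1315 in replicate 2 (130.8). This summit lay 863 bp downstream of eIF2beta, inside an intron of ver, a telomere-capping gene, and 197 bp from the TSS of ver. A weaker summit lay 274 bp upstream of the TSS of eIF2beta itself. Its signal value of 127.1 put it just inside the optimal list, at rank 4800 of 4809. It ranked 5165 in replicate 1 and 3766 in replicate 2. The genes of the other subunits, eIF2gamma and eIF2alpha, had pooled entries of 55.05 and 34.79 at 17 and 32 bp from their TSSs. The TSS of eIF2gamma is also one of Su(var)3-9, so that entry cannot be assigned to either gene alone.

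Among the 6 genes of scanning and start codon factors, eIF1, eIF2A and eIF5B were bound. The summit of eIF1 (FBgn0035423, 3L 3223341 to 3224650, plus strand) had a signal value of 167.6, with 79.74 in replicate 1 and 87.35 in replicate 2. It lay 377 bp upstream of the TSS of eIF1 and 4 bp from that of the ribosomal protein gene RpL28, which points away from eIF1. The gene of the subunit-joining GTPase, eIF5B, spans 32320 bp (3L 3428658 to 3460977, minus strand) and held 3 optimal summits. The strongest and the weakest of these, 207.1 and 133.1, lay in introns 18366 and 16143 bp from its TSS. The third (141.5) lay in an intron 87 bp from the TSS. All 3 ranked higher in replicate 1 (2155, 4015 and 3801) than in replicate 2 (2799, 6111 and 5728).

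Replicates differed most in proportion at eIF4H1 and eIF4EHP, described below, and then at eIF2A, whose mammalian counterpart can deliver initiator tRNA outside the canonical route. The summit of eIF2A (FBgn0037135, 3L 21824740 to 21827856, plus strand) lay in its 5′ UTR, 71 bp from a TSS, with a signal value of 128.5, rank 4722. It had 31.77 in replicate 1 (rank 14049) and 84.93 in replicate 2 (rank 2850), so that it was among the 4809 strongest entries of replicate 2 only. This was also the summit with the matches to promoter motifs, TATCGATA of the factor DREF and GGTCACAC, known as Motif 1. The sites follow with the motif in capitals, as the plus strand of dm6 reads. GGTCACAC is on the minus strand there and reads as its reverse complement.
eIF2A, TATCGATA, chr3L:21824865-21824894: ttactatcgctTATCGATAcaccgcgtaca
eIF2A, GGTCACAC, chr3L:21824894-21824923: acggcaaccgtGTGTGACCaattcaagcac

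The matches began 18 bases to the left and 11 bases to the right of the summit. Within 50 bp of the 18 optimal summits at initiation factor genes, TATCGATA was at 1 summit (5.56%) and GGTCACAC at 1 (5.56%), against 0.416% and 0.312% of all 4809 optimal summits. Both counts rest on the summit of eIF2A alone. The sets compared differ in place, with 83.3% of the 18 summits and 46.5% of all within 1 kb of a protein-coding TSS. The motif shares at summits are not matched for this. Within 100 bp, TATCGATA was at 3 of the 18 summits (16.7%), those of eIF1, eIF2A and eIF3a, against 1.31% of all, and GGTCACAC was still at that of eIF2A only, against 1.02%. Within 50 bp of the outermost TSS of each gene, TATCGATA was at 8 of the 44 initiation factor genes (18.2%) and at 5.56% of all protein-coding genes, and GGTCACAC at 4 (9.09%) and at 5.59%. At the same TSSs, TACTAA was at 11.4% of the initiation factor genes and 4.96% of all, and AGAGAG at 4.55% and 3.79%. Lower than over all genes were CAGCTG with 4.55% against 9.34%, GAGAGA with 2.27% against 3.56%, AAGTCC with 0% against 2.74% and CAAAGTCC with 0% against 0.208%. The motif GAGAGA of the GAGA factor was at 1 summit, that of eIF4G2, against 7.88% of all optimal summits, and its shifted form AGAGAG at the same summit, against 9.63%. The E-box CAGCTG was at none of the 18, against 3.91% of all, and the word TACTAA at none, against 5.45%. The words AAGTCC and, containing it, CAAAGTCC were also at none, against 4.57% and 1.95% of all. All motifs were searched on both strands, and a match is a description of the sequence only. Within 50 bp each count was 1 of 18 summits or 0, and no difference between these shares was tested. The words at none of the 18, apart from the E-box, were called in earlier results of these data. Their shares of all optimal summits may be raised by that choice and are not an independent background.

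Of the 16 genes of eIF3, the scaffold on the small subunit, eIF3a, eIF3g1 and eIF3h were bound. The gene of eIF3h (FBgn0022023, 2L 5051193 to 5053094, minus strand) held 2 summits 205 bp apart, with signal values of 253.6 in an intron and 171.3 in the 5′ UTR, at 226 and 21 bp from its TSS. The stronger had 132.5 in replicate 1 and 116.9 in replicate 2, and the weaker 60.12 and 89.09, so both replicates held an entry at each. The TSS of senju, on the opposite strand, is 63 bp from that of eIF3h. The summit of eIF3a (166.5) lay in its 5′ UTR, 40 bp from its TSS and 110 bp from that of the divergent gene CG1074, with 88.52 in replicate 1 and 80.68 in replicate 2. That of eIF3g1 (204.6) lay 264 bp downstream of the gene and 107 bp from the TSS of Smyd3, with 114.3 in replicate 1 and 88.46 in replicate 2. Of the other 13 eIF3 genes, 11 had a pooled entry, from 31.36 at eIF3d1 to 121.4 at eIF3b. The gene of eIF3d2 had no entry in any list, and that of eIF3f1 had only 1 of 27.00 in replicate 2.

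The cap-binding family was bound at 1 of its 7 genes, eIF4EHP, which encodes a relative of eIF4E known in the fly embryo as a translational repressor. The strong summit of eIF4EHP (FBgn0053100, 3R 24063077 to 24108960, minus strand) had a signal value of 642.9, rank 275, and lay 233 bp upstream of its TSS and 143 bp from that of the divergent gene CG18428. It ranked 131 in replicate 1 (496.9) and 1112 in replicate 2 (142.2). A weaker summit of 158.5 lay in an intron, 9745 bp from the TSS of eIF4EHP and 6548 bp from that of Syx1A, a syntaxin gene. The gene of the general cap-binding protein, eIF4E1, was just outside the optimal list. Its strongest entry, 133 bp from the TSS in the 5′ UTR, had a pooled signal value of 126.6 and rank 4831. Its replicate values were 71.45 and 65.60 in replicates 1 and 2, ranks 4932 and 4369. Of the 5 paralogues, eIF4E6 had an entry of 90.07, at 43 bp from the TSS of CG1951, and eIF4E3, eIF4E4, eIF4E5 and eIF4E7 had none in any list.

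Among the helicase, scaffold and accessory genes of eIF4, eIF4G2 and eIF4H1 were bound. The summit of eIF4G2 (FBgn0260634, 3R 23808285 to 23819237, minus strand) had a signal value of 179.2, with 115.3 in replicate 1 and 85.16 in replicate 2. It lay 190 bp from a TSS shared with CG33111 and inside the span of CG34355 as well, so it cannot be assigned to 1 gene. The gene eIF4H1 (FBgn0262734, X 16448665 to 16454972, plus strand), whose product stimulates eIF4A, held 2 summits of 245.9 and 140.0 in an intron, 191 and 95 bp from TSSs of its own. In replicate 1 these had separate entries of 149.1 and 24.14 (ranks 1723 and 19121), whereas in replicate 2 a common entry of 119.9 (rank 1524) lay within 200 bp of both. The gene of the helicase itself, eIF4A, had a pooled entry of 106.4 that lay 69 bp from the TSS of chic, the profilin gene, and 815 bp from its own. The genes eIF4B and eIF4H2 had no entry in any list, and eIF4G1, on chromosome 4, had 1 of 38.07 in replicate 1 only.

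The gene of eIF6 (FBgn0034915, 2R 23849246 to 23850301, minus strand), the factor that keeps the large subunit from joining, had the second strongest summit of all 44 genes. Its signal value was 969.4, rank 107, with 437.7 in replicate 1 (rank 185) and 531.3 in replicate 2 (rank 66). The summit lay 115 bp upstream of the TSS of eIF6 and inside an intron of ytr, 657 bp from the nearest TSS of that gene. Among the 3 strongest peaks, this was the only one whose nearest TSS was that of the initiation factor gene.

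**Figure D1:**
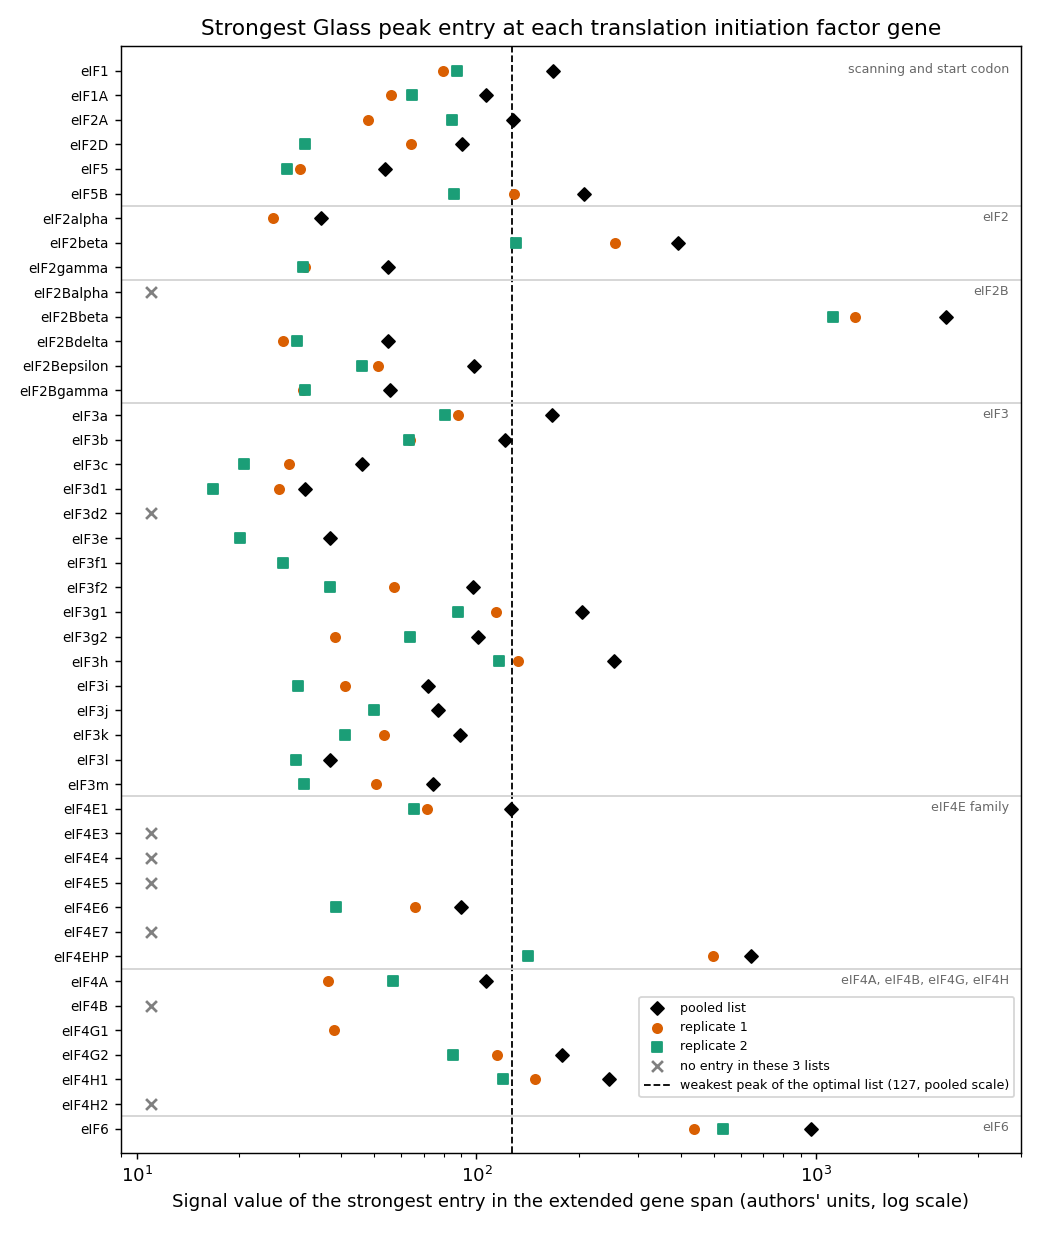
Signal value of the strongest entry inside the extended span of each of the 44 genes (log axis), in the pooled list (diamonds), replicate 1 (circles) and replicate 2 (squares), with genes grouped by role from top to bottom. A cross marks the 8 genes with no entry in any of these lists and the dashed line the weakest optimal peak, 127.0; eIF2Bbeta, eIF6 and eIF4EHP stand to the right at 2411, 969.4 and 642.9. Values are to be compared within a list only.

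Over the bound genes as a list, the peaks were of ordinary height with the 1 kb extension. The median signal value of the strongest summit was 226.5 over the 12 bound initiation factor genes and 231.1 over all 3224 bound genes. The 12 ranged from 128.5 at eIF2A to 2411 at eIF2Bbeta. Summits of the 2404 strongest optimal peaks were at 8 of the 44 genes (18.2%) and at 13.6% of all genes. Of the 12, 7 had 1 summit, 4 had 2 and eIF5B had 3. The extended spans of all 44 initiation factor genes thus held 18 summits, 5.93 per 100 kb, and over all genes the density was 4.45 per 100 kb.

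Longer genes were bound more often over all genes, and the median span was 1968 bp over the initiation factor genes and 2166 bp over all genes. Of the 23 genes under 2 kb, 6 were bound (26.1%), and over all genes of that length 12.8% were. Of the 13 genes from 2 to 5 kb, 2 were bound (15.4%), against 21.8% of all. Of the 8 genes of 5 kb or more, 4 were bound, against 43.8% of all. The short class thus lay above its background and the middle class below it, with 6 and 2 genes behind these shares. A TSS of another gene on the opposite strand within 1 kb upstream, a divergent promoter, was present at 21 of the 44 genes (47.7%) and at 36.2% of all. Of these 21, 7 were bound (33.3%), against 30.9% of all genes with such a neighbour. Of the 23 without one, 5 were bound (21.7%), against 18.7% of all genes without one.

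The replicates were then compared. In each, the 4809 strongest entries were taken, as many as the optimal list holds. By this rule 11 of the 44 genes (25.0%) were bound in replicate 1, against 22.8% of all genes, and 16 (36.4%) in replicate 2, against 23.1%. The 11 of replicate 1 were all among the 16 of replicate 2 (25.0% in both, against 17.6% of all genes), and they were the 12 genes of the optimal list without eIF2A. The 5 others in replicate 2 were eIF2A, eIF1A, eIF3b, eIF3g2 and eIF4E1. At this depth the share was thus close to its background in replicate 1 and above it in replicate 2. Among the 6000 strongest entries it was above in both, with 34.1% against 26.9% in replicate 1 and 38.6% against 27.4% in replicate 2. Among the 8000 strongest it was 45.5% against 32.7% in replicate 1 and 43.2% against 33.4% in replicate 2. With 2 replicates and 1 group, the difference between replicates has no test.

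All 18 optimal summits at initiation factor genes had an entry within 200 bp in both replicate lists, against 97.3% of all optimal summits. High shares follow largely from how the lists were made. The optimal list was chosen for reproducibility, and each replicate list holds 30000 entries. An entry among the 4809 strongest of both replicates was near 12 of the 18 (66.7%), against 63.3% of all. These include the weaker summit of eIF4H1, whose own replicate 1 entry ranked 19121. It was counted through the replicate 1 entry of the stronger summit of eIF4H1, within 200 bp. The larger rank was a median 1.51 times the smaller, from 1.05 to 12.5, and over the 4680 optimal summits found in both lists the median was 1.88. The largest ratios were at the weaker summit of eIF4H1, at eIF4EHP and at eIF2A. Of the 18 summits, 9 ranked higher in replicate 1 and 9 in replicate 2. Of the 5 genes bound in replicate 2 only, eIF1A, eIF3b, eIF3g2 and eIF4E1 are not among these summits. Their strongest pooled entries all ranked higher in replicate 2 than in replicate 1, which follows largely from how these genes were picked.

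**Figure D2:**
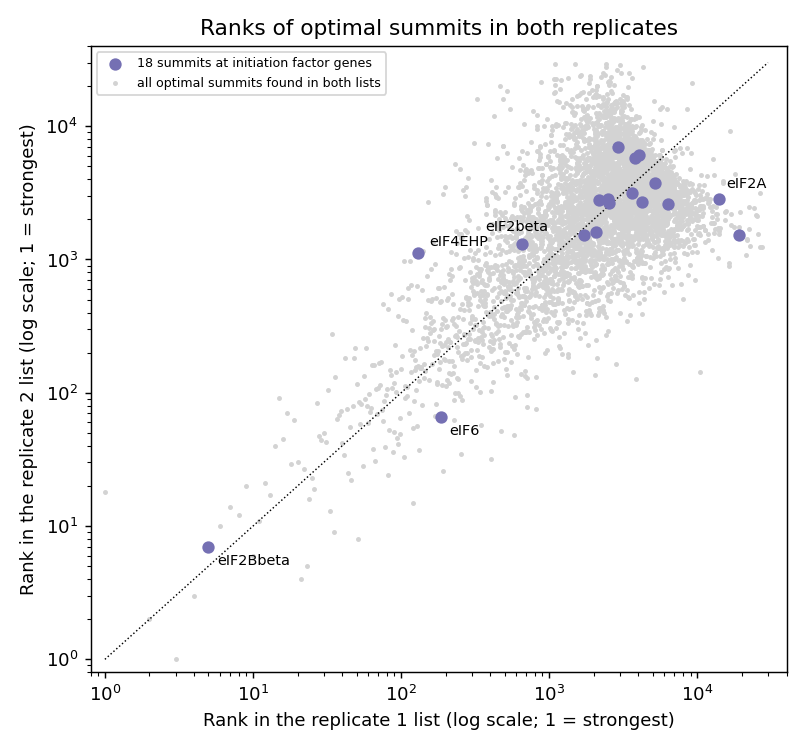
Rank of each optimal summit in replicate 1 (horizontal) and replicate 2 (vertical), both on log axes where 1 is the strongest entry, for the 18 summits at initiation factor genes (large points) and all 4680 optimal summits found in both lists (grey). The dotted line marks equal ranks: eIF2Bbeta (5 and 7) lies near it, eIF4EHP (131 and 1112) above it and eIF2A (14049 and 2850) below it.

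The summits were then placed relative to the initiation factor genes and to their neighbours. A TSS of the gene itself was at most 1 kb away for 13 of the 18 summits (72.2%), and over all 5525 pairs of a gene and a summit 53.0% did. For genes under 2 kb, where a span extended by 1 kb is mostly close to the TSS by construction, the shares were 75.0% (6 of 8) and 73.3%. A TSS of some other protein-coding gene was as close for 13 of the 18, and 11 summits had both. By place in the gene, 7 lay in introns, 4 in 5′ UTRs, 5 upstream and 2 downstream. Inside the gene lay 11 of the 18 (61.1%), against 64.3% of all pairs. No share over all pairs stands beside the other counts, so they describe these 18 summits only.

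Of the 12 bound genes, 6 had their strongest summit nearest to the TSS of another gene, namely RpL28 for eIF1, Ugalt for eIF2Bbeta, ver for eIF2beta, Smyd3 for eIF3g1, CG18428 for eIF4EHP and sty for eIF5B. In the last case the nearest TSS was 17302 bp away. Over all bound genes the share was 36.4%. With the count limited to summits at most 1 kb from the gene's own TSSs, 11 of the 44 genes (25.0%) were bound, against 17.0% of all genes. The gene lost was eIF3g1. When a summit counted only for the gene with the nearest TSS, 8 of the 44 genes (18.2%) were bound, against 15.9% of all genes, namely eIF2A, eIF2beta, eIF3a, eIF3h, eIF4G2, eIF4H1, eIF5B and eIF6.

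**Figure D3:**
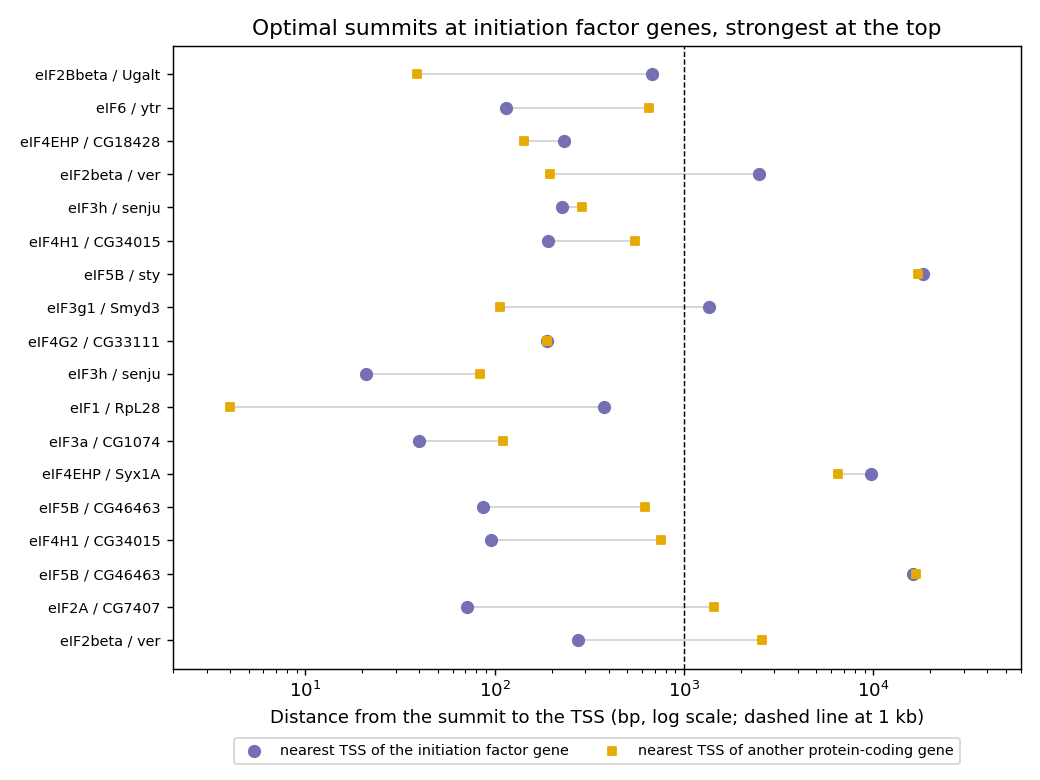
Distance of each of the 18 optimal summits (strongest at the top, labelled with the initiation factor gene and the nearest other gene) to the nearest TSS of the initiation factor gene (circles) and of another protein-coding gene (squares), in bp on a log axis with a dashed line at 1 kb. At eIF1 the other gene is much closer (4 against 377 bp), and at eIF4G2 both symbols coincide at 190 bp.

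Weaker entries were more widespread. The pooled list holds 30000 entries, among them background by its deposited name, and 6290 of these carry its highest −log10 q, 4.10. Entries at that q were at 16 of the 44 genes (36.4%), against 28.2% of all genes. The 4 genes beyond the bound ones were eIF1A, eIF3b, eIF4A and eIF4E1. Any pooled entry was at 34 of the 44 genes (77.3%), against 62.0% of all. The share with a summit grew with depth in the list: 22 of the 44 genes had one among the 8000 strongest pooled entries (33.2% of all genes), and 45.5% of the initiation factor genes (32.7% of all genes) among as many of replicate 1 and 43.2% (33.4%) of replicate 2. Among the 1000 strongest entries it was 9.09% in the pooled list, 9.09% in replicate 1 and 4.55% in replicate 2, where the shares of all genes were 6.86%, 6.79% and 6.78%. At these strongest entries the counts were 4 genes or fewer. Among the 3000 strongest entries the shares were 20.5% in the pooled list, 20.5% in replicate 1 and 25.0% in replicate 2. Those of all genes were 16.2%, 15.8% and 16.3%. Over the genes with a pooled entry, the median of the strongest signal value was 99.85 for the 34 initiation factor genes and 95.18 for all 8647.

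**Figure D4:**
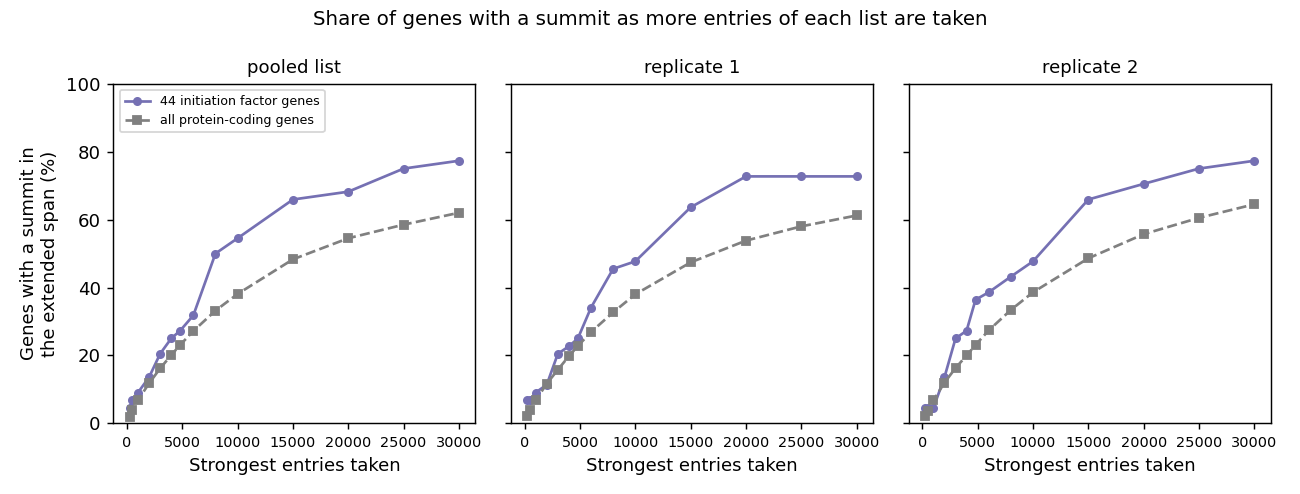
Percentage of genes with a summit in the extended span as more of the strongest entries of the pooled list, replicate 1 and replicate 2 (panels from left to right) are taken, for the 44 initiation factor genes (circles, solid line) and all protein-coding genes (squares, dashed line). At 8000 entries of the pooled list 22 of the 44 genes and 33.2% of all genes had a summit. In replicate 2 the initiation factor genes lay below all genes at 1000 entries (4.55% and 6.78%). They lay above at 3000 entries (25.0% and 16.3%) and 4809 entries (36.4% and 23.1%). At 3000 entries they also lay above in the pooled list (20.5% and 16.2%) and replicate 1 (20.5% and 15.8%).

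The 10 unbound genes with the strongest pooled entries show where these lay. After eIF4E1 came eIF3b with 121.4 in its 5′ UTR, 122 bp from the TSS, with replicate entries of 46.95 and 63.43 at that position. The entry of eIF1A, 106.5, lay in an intron 516 bp from the TSS, with 55.83 in replicate 1 and 64.42 in replicate 2. That of eIF4A, described above, was next with 106.4. Those of eIF3g2 (101.3), eIF2Bepsilon (98.45), eIF3f2 (97.92) and eIF4E6 were nearer to a TSS of Tmlh, Ocrl, CG30431 and CG1951 than to their own. The entry of eIF2D, known from mammals as a factor of non-canonical initiation, was 90.57 at 148 bp upstream of its TSS, with 64.24 in replicate 1 and 31.16 in replicate 2. That of eIF3k (89.66) was in a coding exon 120 bp from the TSS. Of the 22 genes with a pooled entry and no optimal summit, 18 (81.8%) had the strongest entry within 1 kb of a TSS of their own, against 71.7% of the 5423 such genes in all. The remaining genes of that class were eIF3j, eIF3m, eIF3i, eIF2Bgamma, eIF2gamma, eIF2Bdelta, eIF5, eIF3c, eIF3l, eIF3e, eIF2alpha and eIF3d1, with strongest entries from 76.96 down to 31.36.

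No entry of the pooled list or of either replicate was found at 8 of the 44 genes (18.2%), against 29.7% of all. These were eIF2Balpha, eIF3d2, eIF4B, eIF4E3, eIF4E4, eIF4E5, eIF4E7 and eIF4H2. For eIF4B, which lies on 3L from 27842669 to 27858271, the nearest pooled summit was 575 kb away. For eIF4E3, eIF4E5, eIF4E7 and eIF4H2 it was 2.08, 4.05, 2.22 and 3.50 kb away, and for eIF2Balpha, eIF3d2 and eIF4E4 it was 23.7, 26.4 and 37.9 kb away. Several of these symbols are numbered paralogues of another member. In the pair eIF3g1 and eIF3g2 both genes had pooled entries. In the pairs eIF3d1 and eIF3d2, and eIF4H1 and eIF4H2, the gene numbered 1 had pooled entries and the gene numbered 2 had none, while in the pairs eIF3f1 and eIF3f2, and eIF4G1 and eIF4G2, the gene numbered 2 had them. This grouping was chosen after the values were seen. Read coverage at these genes was not analysed here.

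Other genes of translation, from a list of regulators and partners of initiation, were bound at 9 of 17 genes (52.9%), and those of elongation and termination at 5 of 9 (55.6%), beside the 23.1% of all genes. The median signal values of their strongest summits were 229.7 and 194.6. The strongest were larp, which encodes an RNA-binding protein (2396, rank 6), and Lk6, the kinase of eIF4E (1767, rank 21), both in introns, and they ranked 1 and 25 in replicate 1 and 18 and 23 in replicate 2. Next came eEF1gamma (432.0), 6 bp from its TSS, pAbp, the poly(A)-binding protein (311.3), cup, a partner of eIF4E (254.1), and S6k, the ribosomal S6 kinase (229.7). The summit of cup was 159 bp from the TSS of Spn27A and 9538 bp from its own. Both lists hold longer genes than the 44, with median spans of 6191 bp for the regulators and 4252 bp for elongation and termination, so neither share is matched in length. The lists were also chosen with earlier results of these data known, so their shares are a description only. Of the 5 bound genes of elongation and termination, eEF1alpha2 and eEF5 had their strongest summits at 6 bp from the TSS of Tbca and 18 bp from that of RpL12. The gl gene, which encodes Glass itself, had a strongest optimal summit of 267.5 (rank 1537), at ranks 1812 and 1604 in replicates 1 and 2.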

How the data were processed

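Glass was mapped by ChIP-seq in 2 replicates of 1 group. Per the file headers and deposited text files, dm6 peak lists were made for each replicate against a shared control, for both pooled, and as an optimal list of peaks that passed a threshold of the irreproducible discovery rate. The signal value of a peak and its −log10 q value are the authors' deposited values, and serve to rank peaks inside each list. The deposited summit offset gave the summit. The aligner and peak caller are not given in the sources used here. Depth is unknown.

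Summits (1-based) were assigned to genes of Ensembl release 115 with Python 3.11.15, pandas 2.3.3, NumPy 2.4.6 and SciPy 1.17.1. A gene was bound with a summit in its span extended by 1 kb. TSSs were those of all annotated transcripts of protein-coding genes. Sequence came from the RefSeq assembly of the same build, where all peaks lay inside the arms. Assignment was tested on simulated data, with summits planted in 200 genes. No statistical test was made: counts stand beside those over all genes, and genes and summits are not replicates. By the naming rule all members are named, with values for the bound ones and the 10 strongest unbound ones, beside gl, up to 6 other translation genes and neighbours. Values of other unbound members and of eEF1alpha2 and eEF5 were added after they were seen. In the regulator list, 1 of 18 symbols was not matched. The members, the lists and some of the motifs were chosen with earlier results of these data known. Alternatives varied the extension, peak threshold, TSS distance, window and replicate.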

Additional observations from a re-analysis of the deposited data

How the results depend on the processing

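The count of 12 bound genes was 7 without the extension (12.8% of all genes), 11 with 500 bp (20.2% of all genes) and 15 with 5 kb (41.3% of all genes), where the share of the 44 fell below that of all genes. It was 8 with the nearest TSS (15.9% of all genes) or the 2404 strongest peaks (13.6%), 16 at the highest −log10 q, and 11 to 16 from single replicates, each with the other left out. The median of 226.5 ranged from 179.2 to 245.9 over the extensions and the TSS rule. Without the extension it was 179.2, against 237.4 over all bound genes, and with 500 bp 204.6 against 230.4. With summits at most 1 kb from the gene's own TSSs it was 179.2 against 211.7, and with 5 kb 245.9 against 245.9. Summits with an entry in both replicates (100%) were 88.9% with 100 bp and 66.7% when only the strongest entries counted, which is by construction a smaller list. The share within 1 kb of a TSS, 72.2%, was 66.7% with 500 bp and 44.4% with 200 bp, and 60.0% to 78.9% from single replicates. With 100 bp to each side, TATCGATA was at 16.7% of the summits in place of 5.56%. From single replicates, TATCGATA was at 0% to 5.26% and GGTCACAC at 0% to 10.5% of the summits, and AAGTCC, at none in the optimal list, at 0% to 10.5%; the cause was not tested. No paired analysis was possible because there is 1 group. Read depth is unknown.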
